A study of Mus musculus with 9 samples.

Results

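Collagen genes were followed across 9 mouse heart RNA-seq libraries. They were taken as every row whose symbol has the form Col, a number, a and a number, which gave 36 genes of the 15779 in the deposited tables. By known structure, 9 encode fibrillar collagens, 8 encode basement membrane collagens and 19 encode other collagens. Of the 36 genes, 35 are listed in all 3 tables, and the remaining one was counted as 0 where it was not listed. The libraries are polyA RNA of adult C57BL/6J hearts in 3 groups of 3. The first group is wild type given saline. The second is homozygous for the R946X premature stop codon in Mybpc3 (Mybpc3R946X/R946X), the gene of the sarcomere protein cardiac myosin-binding protein C, and was also given saline. The third has the same homozygous genotype and received high-dose-exABE8e, an adenine base editor treatment meant to correct the stop codon. The series text describes AAV9 delivery with editor expression restricted to cardiomyocytes, while heart collagen is known to come mostly from other cells. The labels give no dose figure, sex or age beyond adult. They also do not say that each library came from a separate animal, so p-values measure the spread between these libraries.

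Collagens are secreted proteins whose chains wind into triple helices. Fibrillar collagens of types I, III and V build the tensile fibres between muscle cells and are made in the heart mainly by fibroblasts. Type IV collagen forms the sheet-like network of basement membranes around cardiomyocytes and capillaries, from α1 and α2 chains in most tissues and from α3, α4 and α5 chains in a few. Other collagens form beaded filaments (type VI), short-chain networks (type VIII) or decorate the surface of fibrils (types IX, XII, XIV and XVI). Chains are hydroxylated and folded in the endoplasmic reticulum and cross-linked outside the cell by lysyl oxidases, and fibrosis of the heart is an excess of such matrix.

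The deposited values are whole numbers that sum to between 999152 and 999382 per library. They are not raw counts, the sequencing depth behind them is unknown, and whether they are scaled by transcript length is not given in the sources used here, so levels are compared between groups and not between genes. In the text, values are listed in the order of replicates 1, 2 and 3. Mybpc3 stood at 1510, 1795 and 2039 in saline wild-type hearts, at 133, 142 and 186 in saline mutant hearts and at 1024, 1374 and 1332 in treated mutant hearts, which follows the labels. All 6 cardiomyocyte markers were present, with summed values of 32698 to 41238 in wild-type, 31891 to 41008 in saline mutant and 32906 to 38972 in treated libraries. Xist, which is transcribed from the inactive X chromosome of female cells, was detected in 1 library of each group. It had a value of 119 in wild-type replicate 1, 351 in saline mutant replicate 3 and 39 in treated replicate 1. The Y-linked gene Ddx3y was at 0 in the first pair and at 38 in the treated library, which therefore carried both. In the same libraries the median of 578 genes with transcripts over 8 kb lay 0.34 below (wild-type replicate 1), 0.19 above (mutant replicate 3) and 0.25 below (treated replicate 1) its mean over libraries on the log2 scale. In the other libraries it ran from 0.03 below (wild-type replicate 3) to 0.16 above (treated replicate 2), so such deviations were not confined to the Xist libraries. Counts of collagens with the trend over transcript length removed are given beside each comparison below. These are bulk tissue measurements, in which more collagen-producing cells and more collagen RNA per cell cannot be told apart.

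Sequences upstream of 3 collagen loci are shown because they go with the contrasts described below: Col8a1 rose the most of the collagens with a mean of at least 10, Col3a1 encodes the fibrillar partner of type I collagen and did not pass the test, and Col4a3 and Col4a4, which rose together, start within 71 bases of each other in opposite directions. They come from RefSeq on GRCm38.p6, are written 5′ to 3′ on the strand of the named gene, and end at the base before its annotated start. Capitals mark matches, on either strand, to GGGCGG (the GC box letters), TATAAA (the TATA box letters) and CAGACA (letters known from SMAD binding sites). CCAAT was searched as well, and matches to the 4 motifs did not overlap in these windows. The Col8a1 window is chr16:57754738-57754987 on the minus strand, the Col3a1 window chr1:45311288-45311537 on the plus strand, and the strip between Col4a4 and Col4a3 chr1:82586850-82586920, written on the minus strand of Col4a4.
Col8a1: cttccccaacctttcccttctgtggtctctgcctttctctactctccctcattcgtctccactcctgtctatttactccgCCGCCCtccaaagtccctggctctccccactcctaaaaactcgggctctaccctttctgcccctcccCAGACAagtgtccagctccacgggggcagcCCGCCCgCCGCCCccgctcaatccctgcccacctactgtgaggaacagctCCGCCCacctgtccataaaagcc
Col3a1: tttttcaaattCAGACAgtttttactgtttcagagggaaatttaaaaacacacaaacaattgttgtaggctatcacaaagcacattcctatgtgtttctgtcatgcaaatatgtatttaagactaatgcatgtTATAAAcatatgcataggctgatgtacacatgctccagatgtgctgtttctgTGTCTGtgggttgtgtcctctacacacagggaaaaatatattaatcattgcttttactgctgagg
Col4a4 to Col4a3: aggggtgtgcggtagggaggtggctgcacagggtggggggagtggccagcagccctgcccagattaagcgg
The Col8a1 window held 4 matches to GGGCGG or its complement CCGCCC, and 1 to CAGACA. The Col3a1 window held TATAAA beginning 117 bases before the start, CAGACA once on each strand and no GGGCGG. The Col4a4 to Col4a3 strip held none of the motifs. Of the 36 collagens, 28 had a RefSeq promoter window, and GGGCGG lay within the 250 bases upstream in 19 of these 28 genes, against 32.7% of all 32851 windows. TATAAA lay in 3 of the 28 (12.4% of all windows), CAGACA in 9 (17.1%) and CCAAT in 10 (33.8%). The 28 genes had 30 windows, and a gene counted if any of its windows matched. Collagens are thus counted by gene and the background by window. A match is a string of letters in a window and not a measured binding site.

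The comparison of saline mutant with saline wild-type hearts asked how collagen transcripts differ in the homozygous R946X heart. Collagens were tested where their 6 libraries averaged 1 or more, which held for 31. Of these, 10 rose and 0 fell at an adjusted p under 0.05 in limma, against 4.56% of all 13632 genes tested that rose and 3.14% that fell. The 10 were the type I chain genes Col1a1 and Col1a2, the type IV chain genes Col4a3, Col4a4 and Col4a5, and Col8a1, Col8a2, Col9a2, Col12a1 and Col16a1. At an unadjusted p under 0.05, 20 were higher and 1 lower, where 12% and 7.72% of all genes were. The median log2 fold change of the 31 was 0.69, and that of all genes tested was 0.07. Fold changes here and below are on the log2(value + 1) scale, which makes the change of a gene near 0 look smaller than it was. The saline mutant libraries lay wholly above the wild-type ones for 16 of the 36 genes, of which 15 passed the filter on low values, and wholly below for 1, Col6a6. Among all genes tested, 12.8% lay wholly above and 8.78% wholly below. With the summed values of all 36 genes, collagens made up 0.385% of the wild-type total and 0.604% of the saline mutant total.

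**Figure D1:**
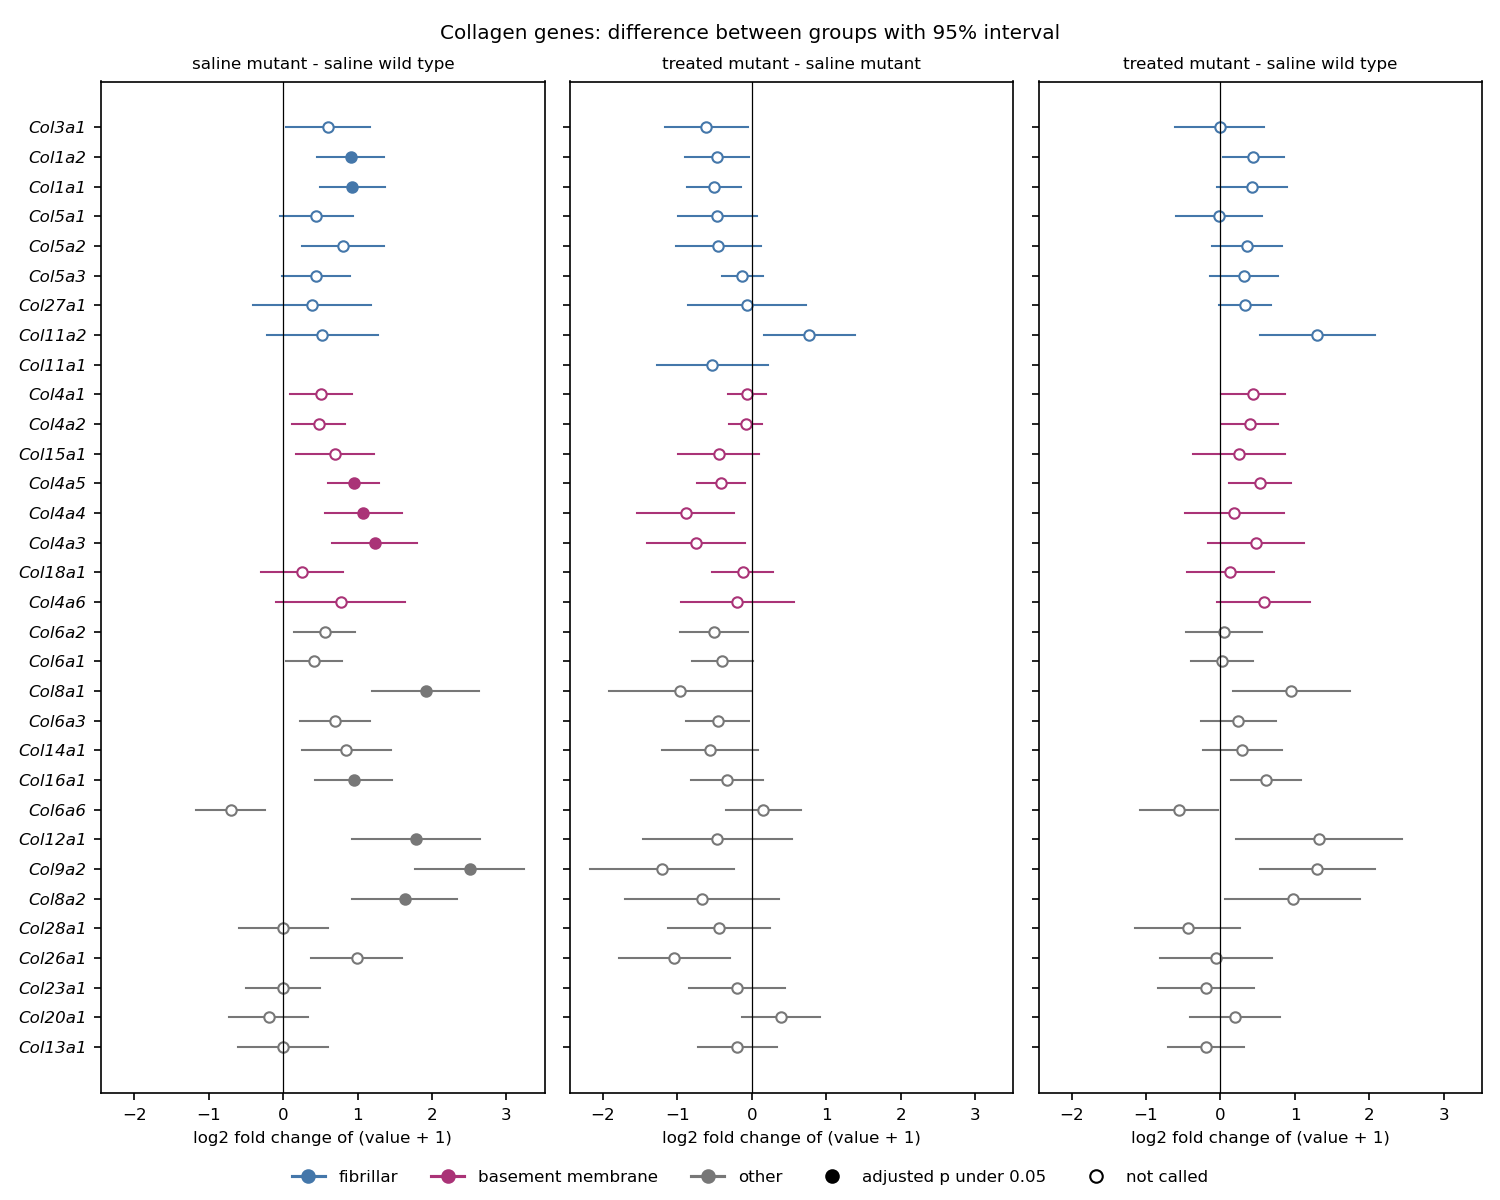
Each point is the difference between group means of log2(value + 1) for 1 collagen gene, with its 95% interval, in the comparison named above each panel (3 libraries per group). Filled points have an adjusted p under 0.05. The 10 filled points all lie in the first panel, to the right of 0, and the treated minus saline mutant panel has 29 of 32 points to the left of 0.

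Among fibrillar collagens, 2 of the 8 tested rose and none fell, where 4.56% of all genes rose and 3.14% fell. All 8 estimates were above 0, as were 8060 of those of all 13632 genes tested. Col1a1 encodes the α1 chain of type I collagen, the main component of cardiac scar (chromosome 11, 94936224 to 94953042, plus strand, 51 exons in its longest transcript). The wild-type libraries held 196, 247 and 148 and the saline mutant libraries 320, 360 and 435. Every mutant library was above every wild-type library, with a log2 fold change of 0.93 (SE 0.189, limma adjusted p = 0.0194). Col1a2, which encodes the α2 chain of the same trimer (chromosome 6, 4504814 to 4541544, plus strand), was at 261, 356 and 241 against 426, 508 and 688. Its groups were again apart, with a log2 fold change of 0.91 (SE 0.199, limma adjusted p = 0.0271). The mean of both genes reached 189% of wild type in saline mutant hearts. The ratio of Col1a1 to Col1a2 values, whose level has no meaning here but whose change does, kept to 0.614 to 0.751 over all 9 libraries.

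Col3a1, the chain of type III collagen, which is laid down with type I and forms finer fibres (chromosome 1, 45311538 to 45349706, plus strand), overlapped between the groups. The wild-type libraries stood at 656, 832 and 466 and the saline mutant libraries at 738, 928 and 1305, with a log2 fold change of 0.60 (SE 0.248, limma adjusted p = 0.219). The ratio of Col1a1 to Col3a1 was 0.299, 0.297 and 0.318 with the wild-type allele, 0.434, 0.388 and 0.333 in mutants given saline and 0.464, 0.423 and 0.355 in treated mutants. So each library with the mutation, treated or not, had more Col1a1 relative to Col3a1 than each wild-type library. This ratio was chosen after the values were seen and was not tested. Type V chains nucleate fibrils and set their width. Col5a2, the convergent neighbour of Col3a1 on chromosome 1, was at 72, 100 and 69 against 105, 126 and 204, groups that did not overlap (log2 fold change 0.81, SE 0.24, limma adjusted p = 0.0884). Col5a1 was at 98, 150 and 94 against 119, 154 and 193 and Col5a3 at 44, 51 and 29 against 48, 57 and 61. Both overlapped between the groups, with adjusted p-values of 0.301 and 0.265 in limma. The remaining fibrillar genes had low values. Col27a1 ranged from 3 to 11, Col11a2 from 0 to 4 and Col11a1 from 0 to 2 over all libraries, and Col11a1 did not pass the filter in this comparison.

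**Figure D2:**
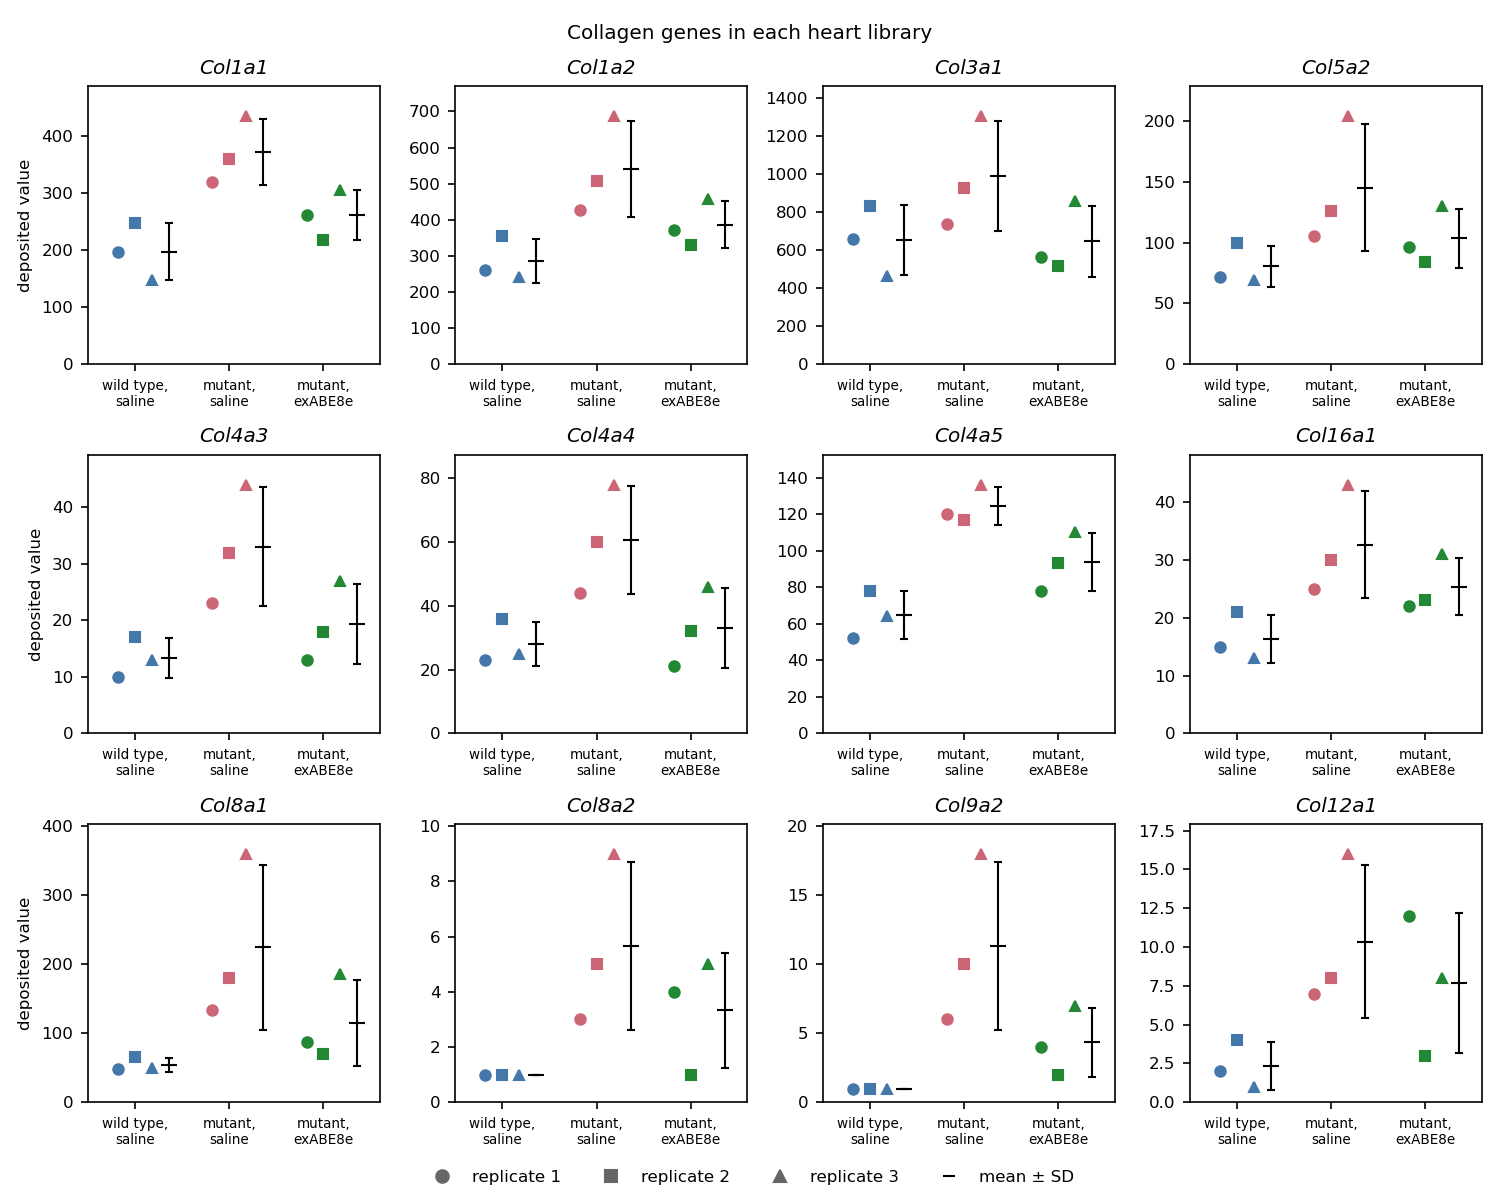
Deposited value (linear axis from 0) in each of the 9 libraries for the 10 collagen genes that rose in saline mutant hearts and for Col3a1 and Col5a2, with the mean and SD of each group (n = 3). Symbols give the replicate number, saline mutant replicate 3 is the highest mutant library in all 12 panels, and for Col3a1 alone the wild-type and saline mutant points overlap.

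Basement membrane collagens rose in 3 of 8 tested genes, against 4.56% of all genes, and all 8 estimates were above 0. The 3 encode the α3, α4 and α5 chains, which assemble with one another. Col4a3 and Col4a4 lie head to head on chromosome 1 (82586921 to 82722059, plus strand, and 82448423 to 82586849, minus strand), on either side of the 71-base strip shown above. Col4a3 increased from 10, 17 and 13 in the wild-type libraries to 23, 32 and 44 in the saline mutant libraries (log2 fold change 1.23, SE 0.251, limma adjusted p = 0.0198). Col4a4 moved alongside, at 23, 36 and 25 against 44, 60 and 78 (log2 fold change 1.08, SE 0.227, limma adjusted p = 0.023). Col4a5, on the X chromosome (141475385 to 141689234, plus strand), was at 52, 78 and 64 against 120, 117 and 136. Relative to the mean, it had the most even mutant libraries of the 10 genes that rose (124 ± 10.2, SD, n = 3, against 64.7 ± 13), with a log2 fold change of 0.95 (SE 0.15, limma adjusted p = 0.00648). Col4a5 is X-linked and 1 library per group carried Xist, and without those libraries it passed the test as well, with a log2 fold change of 0.74 (limma adjusted p = 0.0266). Its head-to-head neighbour Col4a6 was low, from 1 to 3 in wild-type and from 2 to 7 in saline mutant hearts.

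The α1 and α2 chains form the common type IV network, and neither of their genes passed the test. Col4a1 was at 709, 1190 and 809 in the wild-type group and at 1138, 1328 and 1295 in the saline mutant group (log2 fold change 0.51, SE 0.184, limma adjusted p = 0.16). Col4a2 was at 450, 694 and 505 against 734, 792 and 738 (log2 fold change 0.48, SE 0.156, limma adjusted p = 0.116). Wild-type replicate 2, the highest wild-type library for both, overlapped the mutant range for Col4a1 and not for Col4a2. Without it both genes passed the test, with log2 fold changes of 0.72 (limma adjusted p = 0.019) and 0.66 (0.0174). That was the only 1 of 18 alternatives in which either passed, and neither did with any other library left out. Without the Xist libraries the estimates were 0.325 (limma adjusted p = 0.48) and 0.3645 (0.32). Col4a1 and Col4a2 share a start region on chromosome 8 and overlap there by 22 bases on opposite strands. How reads at that point were counted is not given in the sources used here. The sum of the α1 and α2 genes was 1.38 times its wild-type mean in saline mutant hearts, and the sum of the α3, α4 and α5 genes was 2.06 times its own. Whether these differ was not tested. The ratio of Col4a5 to Col4a1 lay between 0.0655 and 0.0791 in wild-type hearts and between 0.0881 and 0.105 in saline mutant hearts. The multiplexins Col15a1 and Col18a1, which link basement membranes to the surrounding matrix, did not pass the test. Col15a1 was at 217, 314 and 177 against 292, 371 and 474 (limma adjusted p = 0.124), and Col18a1 at 17, 28 and 14 against 20, 21 and 28 (0.629).

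**Figure D3:**
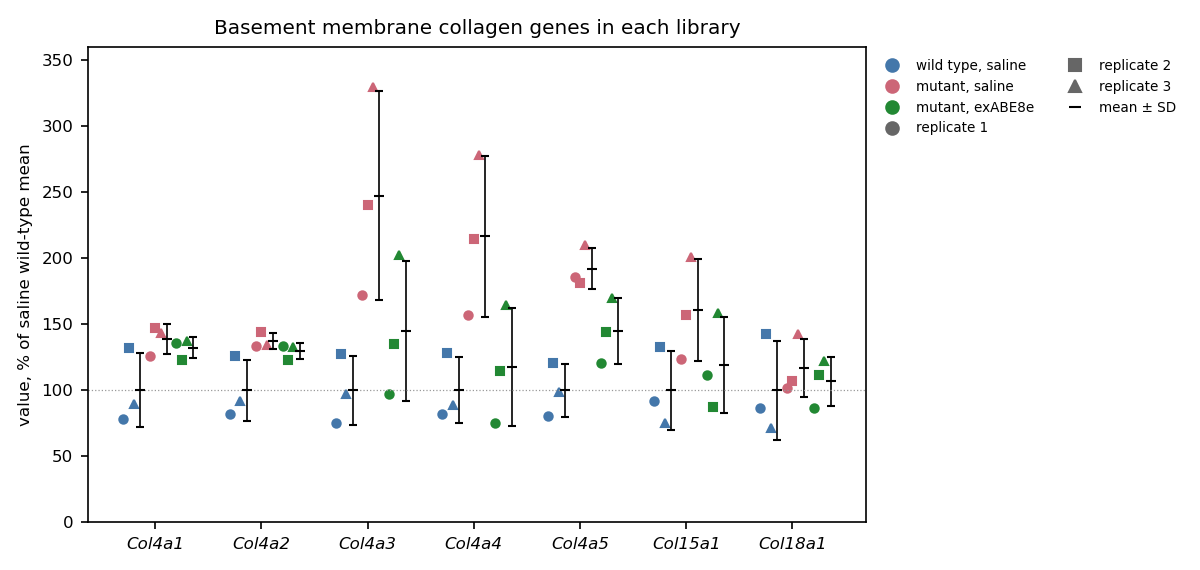
Value of each basement membrane collagen gene with a mean of at least 10, as a percentage of its saline wild-type mean (dotted line at 100), in each library, with group mean and SD (n = 3). Mean values in saline mutant hearts were 139% for Col4a1 and 137% for Col4a2 against 248%, 217% and 192% for Col4a3, Col4a4 and Col4a5, and treated hearts averaged 132% and 130% against 145%, 118% and 145%.

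Of the 19 other collagens, 15 were tested and 5 rose, against 4.56% of all genes. Col8a1 encodes a chain of type VIII collagen, a short-chain network collagen known from vessel walls and valves (chromosome 16, 57624258 to 57754737, minus strand, 4 exons). The wild-type libraries read 48, 66 and 49 and the saline mutant libraries 134, 180 and 360. The lowest mutant library was 2 times the highest wild-type one or more (134 against 66), for a log2 fold change of 1.92 (SE 0.315, limma adjusted p = 0.00755). Its partner chain gene Col8a2 rose from 1 in each wild-type library to 3, 5 and 9 (log2 fold change 1.64, SE 0.31, limma adjusted p = 0.0141). Relative to Col3a1, Col8a1 lay between 0.0732 and 0.105 in wild-type hearts, between 0.182 and 0.276 in saline mutant hearts and between 0.136 and 0.216 in treated hearts. This ratio was chosen after the values were seen and was not tested.

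Fibril-associated collagens sit on the surface of fibrils and carry interrupted helices. Col9a2, a chain of type IX collagen best known from cartilage, was listed at 1 throughout the wild-type group and at 6, 10 and 18 in the mutant group given saline. It had the largest log2 fold change of any collagen tested, 2.50 (SE 0.324, limma adjusted p = 0.00229), but at values this low rounding to whole numbers sets the precision. The other type IX gene listed, Col9a3, ranged from 0 to 1 over all libraries. Of 4 cartilage markers, 2 are listed in the tables, and their sum was 1 to 3 in wild-type and 4 to 8 in saline mutant hearts. The sum was almost wholly Sox9, at 3, 3 and 1 against 5, 4 and 7, which did not pass (limma adjusted p = 0.11). Chad was at 0, 0 and 0 against 0, 0 and 1. These low values do not establish cartilage-like cells, and the part of any such cells in the Col9a2 difference was not tested. Col12a1, of type XII, which is known from tissues under tension, rose from 2, 4 and 1 to 7, 8 and 16 (log2 fold change 1.78, SE 0.378, limma adjusted p = 0.023). Col16a1 rose from 15, 21 and 13 to 25, 30 and 43 (log2 fold change 0.95, SE 0.227, limma adjusted p = 0.0387). Col14a1 was at 40, 48 and 31 against 51, 65 and 109, with groups apart and a log2 fold change of 0.85 that did not pass (limma adjusted p = 0.103).

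Type VI collagen forms beaded filaments around cells from α1, α2 and α3 chains, and the summed type VI value was 1.42 times wild type in saline mutant hearts. Col6a1 was at 215, 244 and 176 against 238, 268 and 344, Col6a2 at 207, 250 and 162 against 248, 299 and 361, and Col6a3 at 91, 134 and 82 against 136, 156 and 204. Col6a1 and Col6a2 overlapped between the groups by 1 or more libraries, Col6a3 did not, and the limma adjusted p-values were 0.202, 0.121 and 0.0838. Col6a6, an alternative to the α3 chain, went the other way, at 10, 16 and 12 against 7, 9 and 6 (log2 fold change -0.71, SE 0.205, limma adjusted p = 0.0818). Of the low genes, Col26a1 lay at 2, 2 and 1 against 3, 4 and 6 (limma adjusted p = 0.0626), and Col28a1, Col23a1, Col20a1 and Col13a1 stayed between 1 and 4 in every library. Col22a1, Col7a1, Col25a1 and Col9a3, with means below 1, ranged from 0 to 2 and were not tested.

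The calls rested on few libraries. Without the Xist library of each group, which leaves 2 against 2, 3 collagens passed (Col4a5, Col8a1 and Col9a2). Without wild-type replicate 1 alone, 2 passed (Col4a5 and Col9a2). Of all genes tested, 4.07% and 4.45% passed under these settings, against 7.7% with all libraries. Saline mutant replicate 3 was the highest mutant library for 17 of the 19 collagens with a mean of at least 10, and wild-type replicate 2 the highest wild-type library for all 19. Over all genes, the median log2 fold change rose with transcript length, from 0.02 under 1 kb to 0.17 above 8 kb. With that trend removed, an alternative chosen after seeing the data, 11 collagens rose and 1, Col6a6, fell. Of all genes tested, 9.93% then passed in either direction.

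Markers of collagen-producing cells were read beside these genes. The 6 fibroblast markers summed to 2694 to 3621 in wild-type, 2835 to 3655 in saline mutant and 2991 to 3139 in treated libraries, and 0 of the 6 passed limma's test between saline mutant and wild type (2 higher and 1 lower at an unadjusted p under 0.05). The sum was made up largely of Gsn, an actin-severing protein, at 2301, 1861 and 1741 in wild-type and 1527, 1498 and 1613 in saline mutant hearts, and the median log2 fold change over the 6 markers was 0.34. Pdgfra was at 72, 76 and 70 against 82, 87 and 121, and Lum at 209, 163 and 110 against 190, 188 and 337. In the same list, Dcn, a proteoglycan of fibroblasts that binds collagen fibrils, was at 835, 718 and 624, then 907, 905 and 1384, then 774, 685 and 819. Of the 6 markers, 2 (Dcn and Pdgfra) lay wholly above wild type in saline mutant hearts and 1 (Gsn) wholly below. Among all genes tested, 12.8% lay wholly above and 8.78% wholly below. Lum overlapped between these groups, as did Tcf21 (13, 11 and 7 against 10, 11 and 18) and Dpt (191, 180 and 142 against 119, 153 and 182). Relative to Dcn, Col3a1 and Col1a1 overlapped between the groups, with Col1a1 at 0.235, 0.344 and 0.237 in wild-type, 0.353, 0.398 and 0.314 in saline mutant and 0.337, 0.318 and 0.372 in treated libraries. Col8a1 over Dcn lay at 0.0575 to 0.0919, 0.148 to 0.26 and 0.102 to 0.227 in the 3 groups. The activated fibroblast list had 6 of 7 genes in the tables and sums of 284 to 492, 313 to 685 and 325 to 490. Its members diverged. Meox1 and Ltbp2 rose in saline mutant hearts, 2.43-fold and 7.99-fold on the value + 1 scale (limma adjusted p = 0.0225 and 0.00157), while Acta2, a smooth muscle and myofibroblast actin, fell by 1.09 on the log2 scale (0.00721). Postn, a matricellular protein of activated fibroblasts, was at 68, 115 and 66 against 119, 209 and 428 (limma adjusted p = 0.0763). Endothelial markers summed to 887 to 1258, 805 to 927 and 807 to 979, mural markers to 1273 to 1535, 1154 to 1429 and 1085 to 1391, and macrophage markers to 140 to 185, 157 to 292 and 134 to 195. The 4 globin genes summed to 100 to 302 in wild-type, 67 to 82 in saline mutant and 135 to 152 in treated libraries, so saline mutant hearts lay below both other groups. Hba.a2, at 6, 6 and 3 against 2, 2 and 1, was called lower than in wild type (limma adjusted p = 0.0414). Hba.a1, Hbb.bs and Hbb.bt, with higher values, were lower but did not pass (limma adjusted p = 0.0517, 0.0535 and 0.0542). The 2 Schwann cell markers in the tables summed to 5 to 10, 2 to 4 and 5 to 6. Mesothelial markers stayed at a sum of 9 or less in every library. The part of cell composition in the collagen differences was not tested.

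**Figure D4:**
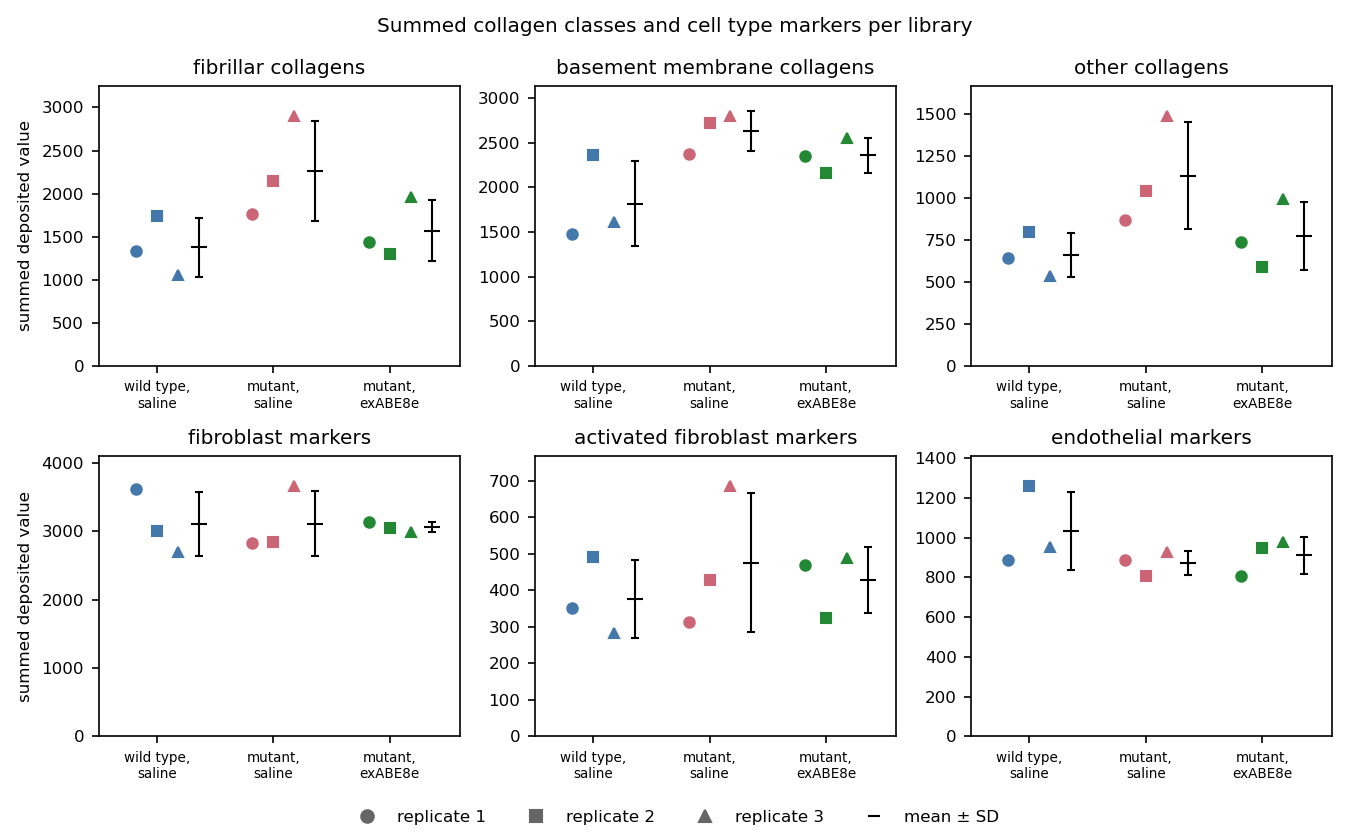
Summed deposited values per library (linear axes from 0) for the 3 collagen classes and 3 marker lists, with group mean and SD (n = 3). Fibrillar collagens sum to 1375 ± 347 in wild-type, 2268 ± 580 in saline mutant and 1570 ± 350 in treated hearts. The sum of the 6 fibroblast markers overlaps between all groups and is made up largely of Gsn, which was lower in each saline mutant library than in each wild-type library.

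Genes that modify, fold, process and cross-link collagen chains were taken as a list of 33, of which 31 were tested. In saline mutant hearts 2 rose and 1 fell, where 4.56% of all genes tested rose and 3.14% fell. The median log2 fold change of the list was 0.20, against 0.07 over all genes. P3h2, a prolyl 3-hydroxylase that acts on collagen chains, held 3 throughout the wild-type group and 11, 13 and 14 in the mutant group given saline (log2 fold change 1.77, SE 0.154, limma adjusted p = 0.000415). Lox, the lysyl oxidase that starts collagen cross-linking, was at 6, 7 and 7 against 18, 19 and 42 (log2 fold change 1.73, SE 0.289, limma adjusted p = 0.00805). P3h4, a partner of a collagen lysyl hydroxylase complex, was at 42, 33 and 33 against 24, 21 and 25 (log2 fold change -0.60, SE 0.136, limma adjusted p = 0.032). The 2 genes of the list with the highest mean values did not pass. Sparc, a collagen-binding matricellular protein, was at 853, 1154 and 804 against 1026, 1330 and 1631 (limma adjusted p = 0.194). Serpinh1, the collagen chaperone of the endoplasmic reticulum, was at 277, 343 and 244 against 297, 337 and 347 (0.496). Of 9 collagen receptor genes, 8 were tested and 1 rose, against the same 4.56% of all genes. This was Ddr1, a receptor tyrosine kinase bound by collagen, at 24, 26 and 24 against 38, 34 and 36 (log2 fold change 0.53, SE 0.108, limma adjusted p = 0.0202). The integrin chain genes Itgb1 (510, 680 and 588 against 572, 620 and 793) and Itga1 (66, 105 and 82 against 78, 84 and 88) overlapped between the groups. P3h2 passed with any 1 library left out, and Lox did except without wild-type replicate 1 (adjusted p = 0.0529). P3h4 lost its call without any 1 of the 6 libraries (adjusted p 0.0529 to 0.146), and Ddr1 without any but wild-type replicate 2 (0.0506 to 0.0937).

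**Figure D5:**
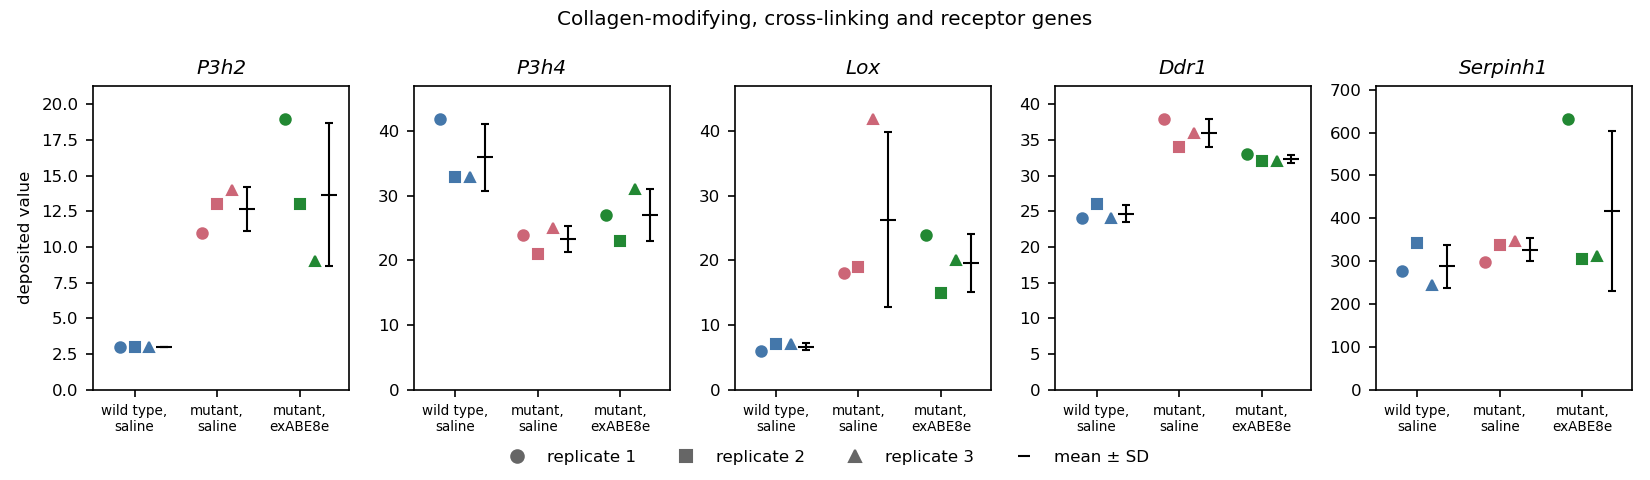
Deposited value (linear axes from 0) of 4 genes of the collagen assembly list and the receptor gene Ddr1 in each library, with group mean and SD (n = 3). P3h2 and Lox in treated hearts lie in or near the saline mutant range and above the wild-type range, and treated replicate 1 stands apart for Serpinh1 at 633.

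The comparison of treated with saline mutant hearts asked whether collagen transcripts differ after base editing. No collagen passed limma's test at an adjusted p under 0.05, and 2 of all 13636 genes did (0.0147%). At an unadjusted p under 0.05, 11 of 32 collagens tested were lower and 1, Col11a2, was higher, where 4.76% and 3.53% of all genes were. Estimates were below 0 for 29 of the 32, with a median log2 fold change of -0.45 against -0.02 over all genes. The size of this shift depended on the libraries. Without the Xist libraries the collagen median was -0.14, against 0.04 over all genes, and 7 of 31 estimates were above 0. Leaving out 1 library gave collagen medians from -0.60 (without saline mutant replicate 1) to -0.26 (without saline mutant replicate 3, with 7 of 31 above 0). Treated libraries lay wholly below the saline mutant ones for 3 of the 36 genes, Col1a1, Col4a2 and Col4a5, and wholly above for 0, where 4.34% of all genes tested lay wholly below and 5.48% wholly above. A p above the threshold does not show that the groups are alike, and the intervals of single genes below give the sizes these libraries allow. With the trend over transcript length removed (a median of -0.07 over all genes above 8 kb), 0 collagens passed and the collagen median was -0.40. Of all genes tested, 0.0293% then passed.

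Among type I chains, Col1a1 was at 261, 218 and 305 in treated hearts, below each saline mutant library (320 to 435), with a log2 fold change of -0.51 (SE 0.157, limma adjusted p = 0.44). Col1a2 was at 373, 331 and 457 (log2 fold change -0.47, adjusted p = 0.572). Both treated means lay between the means of the saline groups, at 133% and 135% of wild type. Col3a1 at 562, 515 and 860, Col5a1 at 88, 99 and 153 and Col5a2 at 96, 84 and 130 overlapped the saline mutant range, and the first pair had means of 99.1% and 99.4% of wild type. Col5a3 was at 51, 48 and 52.

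Of the type IV chain genes, Col4a1 was at 1228, 1113 and 1242 in treated hearts, with a log2 fold change of -0.07 from saline mutant hearts (95% interval -0.33 to 0.19), and Col4a2 was at 733, 675 and 731 (-0.31 to 0.14). Col4a3 was at 13, 18 and 27 (log2 fold change -0.75, limma adjusted p = 0.55), Col4a4 at 21, 32 and 46 (-0.89, 0.457) and Col4a5 at 78, 93 and 110 (-0.42, 0.498). Their summed value was 0.67 times that of saline mutant hearts, against 0.95 times for the α1 and α2 sum. Whether these ratios differ was not tested. Col15a1 was at 263, 206 and 374 and Col18a1 at 17, 22 and 24.

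Among the other collagens, Col8a1 was at 88, 70 and 186 in treated hearts (log2 fold change -0.97, SE 0.418, limma adjusted p = 0.592). Treated replicate 3 alone reached the saline mutant range of 134 to 360, and it was the highest treated library for 18 of the 19 collagens with a mean of at least 10. Col9a2 was at 4, 2 and 7 (log2 fold change -1.20, adjusted p = 0.506), Col8a2 at 4, 1 and 5, Col12a1 at 12, 3 and 8 and Col16a1 at 22, 23 and 31. Type VI genes had a summed value 0.736 times that of saline mutant hearts, with Col6a1 at 220, 171 and 255, Col6a2 at 218, 160 and 267 and Col6a3 at 114, 99 and 147. Col14a1 was at 41, 41 and 66 and Col6a6 at 6, 10 and 9. None of the 31 assembly genes and none of the 8 receptor genes tested passed limma's test in this comparison. At an unadjusted p under 0.05 there were 1 higher and 1 lower assembly gene and 0 receptor genes. Over all genes 3.53% were higher and 4.76% lower at that threshold. P3h2 at 19, 13 and 9 and Lox at 24, 15 and 20 overlapped the saline mutant range, with log2 fold changes of 0.05 (95% interval -0.50 to 0.60) and -0.32 (-1.03 to 0.39). P3h4 was at 27, 23 and 31, Ddr1 at 33, 32 and 32 and Sparc at 981, 762 and 1132. Serpinh1 was at 633, 305 and 312, where replicate 1 stood far above the others, and the hydroxylase gene P4ha1 was also highest in that library, at 188 against 101 and 64.

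The comparison of treated mutant with saline wild-type hearts, which shares its libraries with both comparisons above, asked how far treated hearts were from wild type. No collagen passed limma's test, against 0.863% of all 13554 genes tested that rose and 0.125% that fell. At an unadjusted p under 0.05, 10 of 31 collagens were higher and 1 lower, where 7.74% and 4.78% of all genes were. Estimates were above 0 for 24 of the 31, with a median log2 fold change of 0.31 against 0.01 over all genes. With the trend over transcript length removed (a median of 0.10 over all genes above 8 kb), 0 collagens passed and the collagen median was 0.24. Of all genes tested, 1.45% then passed. Treated libraries lay wholly above wild type for 4 of the 36 genes, Col8a1, Col9a2, Col11a2 and Col16a1, and wholly below for 0, where 9.13% of all genes tested lay wholly above and 5.43% wholly below. Their log2 fold changes were 0.95, 1.30, 1.30 and 0.61, with limma adjusted p-values of 0.3, 0.162, 0.159 and 0.262. Col1a1 and Col1a2 had estimates of 0.42 and 0.44, Col4a1 and Col4a2 of 0.44 and 0.40, and Col4a5 of 0.53, with 95% intervals from -0.05 to 0.89, 0.03 to 0.86, 0.00 to 0.87, 0.02 to 0.77 and 0.11 to 0.95. The estimate for Col3a1 was -0.01 (-0.61 to 0.59). P3h2 and Lox rose in treated hearts against wild type, with log2 fold changes of 1.82 (SE 0.241) and 1.41 (SE 0.178) and a limma adjusted p of 0.0277 each, although each lost its call when any 1 wild-type library was left out (lowest adjusted p 0.087), P3h2 also without treated replicate 2 (0.0882) and Lox without treated replicate 1 (0.0611) or 3 (0.0503).

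The authors' deposited tables of genes they selected list 14 of the 36 collagens for saline mutant against wild type, all higher. That list holds 689 of the 15779 genes, not all of which appear in every full table. They comprise the 10 genes named above with Col5a2, Col6a3, Col14a1 and Col15a1. These lists follow the authors' own rule, which differs from the limma threshold used here. Col3a1, Col4a1, Col4a2 and Col6a2 were not listed, with authors' log2 fold changes of 0.52, 0.41, 0.40 and 0.47. Their unadjusted normal p-values from the authors' statistic were 0.00781, 0.0168, 0.0181 and 0.00881. The authors' deposited table for treated against saline mutant hearts lists 1 of the 36 collagens, Col4a4, as lower, among 137 of the 15779 genes. Their deposited table for treated against wild type lists 1 of the 36, Col8a1, as higher, among 317 of the 15779. In the authors' deposited tables, the values under the heading for adjusted p are unadjusted, as they equal the two-sided normal p of the tabulated statistic.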

How the data were processed

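The deposited tables hold 1 whole-number score per gene and library, made by the authors, that sums to 999152 to 999382 per library. The submitters' processing notes name HISAT2, HTSeq, DESeq2 and mm10, with no version or order. Scaling by length and depth are not given in the sources used here. The authors' deposited tables also give log2 fold changes, p-values and a mean signal per gene. Gene positions are GENCODE M21 on GRCm38, and promoter windows RefSeq on GRCm38.p6.

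Each pair of groups was fitted with limma 3.58.1 (R 4.3.3) on log2(value + 1), over genes with a mean of at least 1 in the 6 libraries. Residual variances were floored at the rounding variance (1/12), the prior was trended, its degrees of freedom set by genes averaging 30 or more, and p-values were Benjamini-Hochberg adjusted over all genes tested. The fit was tested on simulated data with independent normal errors, whose variances came from the fit itself. In each run a fixed number of genes was given a change, none of them with very low values. Recovery depends on how many genes change, because the adjusted threshold loosens as more do. In treated against saline mutant hearts 2 of 13636 genes passed, so the simulated recovery does not give the power of that comparison. Changes of 1 on the log2 scale were recovered for 93%, 86.9% and 90% of changed genes, in the order of the comparisons above. Changes of 0.5 were mostly missed, with 1.1%, 0.1% and 0% recovered. Of the calls, 4.12%, 3.87% and 3.95% were false at a change of 1, and 0%, 50% and 0% at 0.5.

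The members and gene lists were chosen with earlier results of these data known. Values per library are given for Mybpc3, collagens with a mean of at least 10 over 9 libraries, collagens called in any comparison, and, of the assembly and receptor lists, each called gene and the 2 with the highest means; other genes named were chosen after their values were seen. In all, 18 alternatives per comparison were run.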

Additional observations from a re-analysis of the deposited data

How the results depend on the processing

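In saline mutant against wild-type hearts, 10 collagens passed limma's test, and between 7 and 15 did under other pseudocounts, filters, scalings, priors and covariates, except with the variance trend without a rounding floor (2) or without the Xist libraries (3). Leaving out 1 library gave 2 to 14: 2 without wild-type replicate 1, 5 without wild-type replicate 3, 3 without saline mutant replicate 2 and 4 without saline mutant replicate 3. The share of all genes tested that passed was 7.7% as reported. It was 6.29% with the trend without a rounding floor and 4.07% without the Xist libraries. Without the libraries just named it was 4.45%, 4.67%, 3.71% and 5.06%, in the same order. Col4a5 passed in all 18 alternatives (limma adjusted p 0.000648 to 0.0379) and Col9a2 in the 17 that tested it (0.000217 to 0.0249). Col8a1 passed in 16, lost without wild-type replicate 1 (0.0528), and Col8a2 in 13 of 17, lost without wild-type replicate 1 (0.0728) or saline mutant replicate 2 (0.0573). Col1a1 passed in 13, lost without wild-type replicate 1 (0.0817) or saline mutant replicates 2 (0.0694) or 3 (0.0717). Col1a2, Col4a3, Col4a4, Col12a1 and Col16a1 each lost the call without wild-type replicate 1 or 3 or saline mutant replicate 2 or 3, with adjusted p-values up to 0.123, 0.0948, 0.113, 0.111 and 0.151. Over all genes, calls ran from 506 to 1353 in this comparison, from 2 to 32 in treated against saline mutant and from 1 to 243 in treated against wild type.

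Correlations between the deviations of same-numbered libraries were -0.37 to -0.10, -0.07 to 0.20 and 0.03 to 0.57 in the order of the text. They were all above 0 only in treated against wild type. From so few libraries per group, these correlations cannot decide whether the numbers pair the samples, and the labels do not say. With a replicate block, 11 collagens passed in the first comparison, 2 in treated against saline mutant (Col4a4, adjusted p = 0.0409, and Col8a1, 0.0483, both lower) and 0 in treated against wild type. Of all genes tested, 6.01%, 0.22% and 0.258% passed with the block, in the same order. No collagen passed in the last 2 comparisons under any other alternative.

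Directions turned for the following genes, none of which had passed the test in that comparison; their estimates as reported were mostly near 0, the widest being -0.46 for Col12a1, -0.32 for Lox and 0.26 for Serpinh1 in treated against saline mutant hearts. In saline mutant against wild-type hearts, log2 estimates with median-of-ratios scaling were -0.0648 for Itga1. With upper-quartile scaling they were -0.0880 for Itga1. Without the Xist libraries they were -0.0864 for Itgb1 and -0.195 for Itga1. With the length trend removed they were -0.181 for Itga1. Leaving out 1 library there gave -0.155 to 0.176 for Itga1. In treated against saline mutant hearts, log2 estimates without the Xist libraries were 0.158 for Col18a1, -0.132 for P3h2, -0.0363 for Serpinh1, 0.0533 for Itgb1 and 0.101 for Itga1. With the Y-linked level as covariate they were 0.000652 for Lox and 0.0308 for Itgb1. Leaving out 1 library there gave -0.202 to 0.298 for P3h2, -0.223 to 0.0199 for Col18a1, -0.529 to 0.0605 for Lox, -0.176 to 0.0588 for Itgb1, -0.0806 to 0.445 for Serpinh1, -0.209 to 0.0608 for Itga1 and -0.834 to 0.0160 for Col12a1. In treated mutant against wild-type hearts, log2 estimates with median-of-ratios scaling were -0.000500 for Col6a1. With upper-quartile scaling they were -0.0627 for Col6a1, -0.0306 for Col6a2, -0.0492 for Sparc and -0.00571 for Itgb1. Without the Xist libraries they were 0.0958 for Col3a1, 0.0512 for Col5a1, -0.0525 for Sparc and -0.0331 for Itgb1. With the Y-linked level as covariate they were -0.0152 for Sparc and -0.00874 for Itgb1. With the length trend removed they were -0.0339 for Col6a1 and -0.00524 for Col6a2. Leaving out 1 library there gave -0.236 to 0.186 for Col3a1, -0.0973 to 0.192 for Sparc, -0.0276 to 0.179 for Itgb1, -0.253 to 0.196 for Col5a1, -0.247 to 0.0842 for Itga1, -0.0682 to 0.407 for Col18a1, -0.113 to 0.174 for Col6a1, -0.121 to 0.247 for Col6a2 and -0.0797 to 0.468 for Col4a4. The cause of these changes was not tested. Depth is unknown, and rounding to whole numbers limits genes with values near 1.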
